A study of Mus musculus with 21 samples.

Results

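The regions described here are 1935 binding sites of estrogen receptor alpha (ERα) in visceral white fat (vWAT) of estradiol-treated mice that lie in gene deserts. A peak, a stretch of genome enriched in the ERα precipitate, was included when it lay on chromosomes 1 to 19 or X of build mm10, overlapped no peak of the vehicle vWAT list by a single base, and had its summit over 100 kb from every protein-coding gene span. The 1935 peaks were 12.1% (95% Wilson interval 11.6 to 12.6%) of the 16015 vWAT peaks with estradiol and no vehicle overlap, called estradiol-only here. The vWAT estradiol list held 20715 peaks in all, and 77.3% of them had no vehicle overlap. The peaks were thus chosen by their presence in the estradiol list and their absence from the vehicle list, and their enrichment and that absence are given as description, with nothing read from them. The other tissues and the genome position relative to noncoding genes took no part in the choice.

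All mice were of strain CD-1 and 10 weeks old, and no group carried a labelled genetic change. ERα ChIP-seq with the antibody sc543 was done on vWAT of mice given estradiol (4 libraries), on subcutaneous white fat (scWAT, 3 libraries), brown fat (BAT, 1 library) and Liver of mice given estradiol (2 libraries), and on vWAT of mice given vehicle (2 libraries). Each group was deposited as 1 peak list for all its libraries, so no value per library was at hand, no comparison below has replicates, and intervals on shares cover counting error over peaks alone. Besides the vWAT estradiol list, 7400 vehicle, 17971 scWAT, 5193 BAT and 21411 Liver peaks were used. The lists differed in length, in libraries and in how many peaks were weak: a −log10 q-value of 2 or more was held by 89.9% of peaks for vWAT with estradiol, 88.0% for scWAT, 33.5% for BAT, 46.4% for Liver and 70.9% for vWAT with vehicle. The sources used here give neither the depth behind a list nor the sex of the mice, and no dose, route or time for the treatment. Binding alone carries no marker expression, so the tissue labels could not be checked against marker genes, and in a bulk tissue fewer cells with a site and less binding per cell cannot be told apart.

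ERα is a ligand-activated transcription factor of the nuclear receptor family. With estradiol bound it dimerizes and binds an inverted repeat of GGTCA spaced by any 3 bases, the estrogen response element, or single copies of it, often beside sites of other factors such as AP-1. Most of its binding in studied cells is at enhancers away from promoters, and enhancers in gene deserts can act over long distances, often on developmental regulators that flank the desert. In white fat, estrogen signalling through ERα is known for its influence on fat distribution and lipid turnover.

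No genome was used here, so sequence was read where a peak fell on the start of a noncoding gene. RefSeq start windows of 300 bases (250 before and 50 after the annotated start, build GRCm38.p6) were overlapped by 24 of the 1935 peaks, at 25 windows that all belong to long noncoding RNAs (lncRNAs), and 13 windows of 12 genes held a summit. Of these 13, 5 are shown, picked after their letters and values were seen. They are 3 with AGGTCA, at different distances from the summit and including the nearest, the one under the strongest peak, which holds an AP-1 string, and that of Mir100hg, the noncoding gene with the most peaks. They run 5′ to 3′ on the gene's strand, and capitals mark AGGTCA, the single estrogen receptor site with 1 base before it, or the AP-1 letters TGANTCA, on either strand. Gm30173 lies at chr3:52516714-52517013 (plus strand) in the desert beside Foxo1, Gm41044 at chr13:102014298-102014597 (minus strand) in the desert beside Pik3r1, and LOC108167852 at chr11:79823621-79823920 (minus strand). 4930543I11Rik lies at chr10:67785493-67785792 (plus strand) and Mir100hg at chr9:41474643-41474942 (plus strand).
Gm30173: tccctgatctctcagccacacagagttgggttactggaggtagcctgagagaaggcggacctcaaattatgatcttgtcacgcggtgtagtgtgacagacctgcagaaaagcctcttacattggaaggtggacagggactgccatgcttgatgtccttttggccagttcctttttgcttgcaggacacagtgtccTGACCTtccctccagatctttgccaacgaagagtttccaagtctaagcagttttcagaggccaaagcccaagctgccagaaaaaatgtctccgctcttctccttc
Gm41044: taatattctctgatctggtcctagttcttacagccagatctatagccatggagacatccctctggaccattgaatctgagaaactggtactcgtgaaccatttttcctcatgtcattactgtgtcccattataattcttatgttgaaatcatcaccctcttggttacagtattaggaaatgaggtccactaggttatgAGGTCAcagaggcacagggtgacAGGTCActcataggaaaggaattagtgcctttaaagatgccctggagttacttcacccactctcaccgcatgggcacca
LOC108167852: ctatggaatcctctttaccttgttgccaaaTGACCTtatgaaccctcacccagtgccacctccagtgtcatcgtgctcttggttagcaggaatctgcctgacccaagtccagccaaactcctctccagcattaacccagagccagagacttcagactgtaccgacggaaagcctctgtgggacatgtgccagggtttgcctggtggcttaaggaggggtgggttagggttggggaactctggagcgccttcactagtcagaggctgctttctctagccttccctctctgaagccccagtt
4930543I11Rik: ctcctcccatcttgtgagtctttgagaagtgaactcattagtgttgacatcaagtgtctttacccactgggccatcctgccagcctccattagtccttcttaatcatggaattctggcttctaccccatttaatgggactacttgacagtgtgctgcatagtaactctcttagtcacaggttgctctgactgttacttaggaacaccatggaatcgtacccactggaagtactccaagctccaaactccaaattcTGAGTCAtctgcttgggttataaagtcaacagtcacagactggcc
Mir100hg: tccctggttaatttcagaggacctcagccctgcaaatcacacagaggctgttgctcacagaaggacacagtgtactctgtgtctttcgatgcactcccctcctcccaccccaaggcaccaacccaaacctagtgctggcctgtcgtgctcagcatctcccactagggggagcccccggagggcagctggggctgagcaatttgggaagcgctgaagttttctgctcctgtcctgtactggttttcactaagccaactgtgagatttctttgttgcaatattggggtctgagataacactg

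In the Gm30173 window the summit fell on base 197, inside the TGACCT, which reads AGGTCA on the other strand, 1.5 bp from its centre. The peak there had an enrichment of 4.30 and was also in the scWAT list. The Gm41044 window held AGGTCA in 2 copies on the same strand, the nearer centred 21.5 bp from the summit at base 246, under a peak with an enrichment of 6.25 found in no other tissue. The LOC108167852 peak was stronger, at 8.03, with its summit 76.5 bp from the AGGTCA, and it was found in scWAT. The strongest peak with its summit in a window was that of 4930543I11Rik, with an enrichment of 10.1 and a scWAT counterpart, whose window held TGAGTCA and no AGGTCA. The Mir100hg window held neither string, under a peak of 3.63.

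The 13 windows include 2 starts of Gm14064, 18 bases apart under the same peak, so shares are given with 1 window per gene, its first. AGGTCA was present in 7 of the 12 genes with a summit (58.3%) and in 10 of the 24 overlapped genes (41.7%). By comparison it was found in 22.9% of the 621 genes with the summit of another estradiol-only peak in a start window, 10.7% of the 2084 genes with the summit of a peak held with vehicle, 18.8% of the 1739 genes with a window in a desert, and 16.0% of all 26794 genes. Counted over windows, it was in 7 of 13 (53.8%, interval 29.1 to 76.8%), against 25.3% of the 677 windows of other estradiol-only summits and 19.4% of the 2059 desert windows.

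AGGTCA contains GGTCA, and GGTCA was also in 7 of the 12 genes, against 52.2% for other estradiol-only summits and 40.4% for desert genes. The single NF1 site TTGGC was in 6 of the 12, against 59.6% for other estradiol-only summits and 43.4% for desert genes. For both strings the interval over 12 genes covered the share at other estradiol-only summits. The full element GGTCANNNTGACC was in none of the 12 and none of the 1739 desert genes, against 4 of 621 with another estradiol-only summit (0.644%) and 18 of all 26794 (0.0672%). TTGCNNAA, a C/EBP-type string, was in 4 of the 12, against 13.04% for other estradiol-only summits and 15.7% for desert genes. TGANTCA was in 3 of the 12, against 7.09% for other estradiol-only summits and 10.6% for desert genes. The string AGATAA, typical of GATA factors, was in 2 of the 12, against 6.92% for other estradiol-only summits and 17.9% for desert genes. The forkhead strings TGTTTAC and TGTTTGC were in none of the 12. Over the 24 overlapped genes, the C/EBP-type string was in 10 (41.7%, interval 24.5 to 61.2%), above other estradiol-only summits (10.6 to 15.9%). Only 12 of the 24 held a summit, so these sets are unlike. Over the 12 the interval of the C/EBP-type string was 13.8 to 60.9%, which overlapped that of other estradiol-only summits. The single estrogen receptor site with 1 base before it was also in 10 of the 24. Its interval there overlapped that of other estradiol-only summits (19.7 to 26.3%). Over the 12 genes with a summit, the like set, its interval was 32.0 to 80.7% and did not overlap it. With 12 or 24 genes these shares are loose, and a match of letters is not a bound site. The median GC content was 48.7% in the 13 windows, 57% in windows of other estradiol-only summits, 45% in desert windows and 53% in all windows.

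Enrichment of the desert peaks over the authors' background ran from 2.66 to 20.7, with a median of 5.003 and quartiles of 4.12 and 6.51. The median was 4.59 for the 14080 other estradiol-only peaks and 6.58 for the 184 desert peaks held with vehicle. A −log10 q-value of 2 or more was reached by 91.4% of the desert peaks, against 87.5% of the other estradiol-only peaks, and median widths were 412 and 400 bp. Many peaks shared the same deposited value: an enrichment of 4.59 recurred in 92 desert peaks, and the 5 commonest values covered 269 of them (13.9%). Of the peaks held with vehicle, 184 of 4700 lay in deserts (3.91%, interval 3.40 to 4.51%), a value given as description since the rule used both the vehicle list and the distance.

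The median distance from summit to gene was 193 kb (quartiles 135 and 316 kb), and the most distant peak lay 1901 kb from a gene. Just inside the limit were a peak at 100.061 kb from H2al1j on chromosome X (enrichment 6.24), one at 100.087 kb from Cops8 (3.84) and one at 100.219 kb from Zfp36l2 (3.83). Just outside it were peaks at 99.995 kb from Ptger4 (4.08), 99.986 kb from Bod1 (4.90) and 99.927 kb from Nr3c1, the glucocorticoid receptor gene (7.05).

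The first comparison asks in which other tissues the same sites were listed with estradiol. Of the 1935 desert peaks, 730 overlapped a scWAT peak (37.7%, interval 35.6 to 39.9%), against 38.9% of the other estradiol-only peaks (38.1 to 39.7%) and 48.4% of all vWAT estradiol peaks. BAT held 74 of them (3.82%, 3.06 to 4.77%), against 3.86% of the other estradiol-only peaks (3.56 to 4.19%) and 11.1% of all vWAT estradiol peaks. In both fat depots the desert and other estradiol-only shares overlapped within counting error. Liver held 80 of the desert peaks (4.13%, 3.33 to 5.12%), against 10.7% of the other estradiol-only peaks (10.2 to 11.2%) and 22.8% of all vWAT estradiol peaks, and these intervals did not overlap. No other tissue list held 1152 of the desert peaks (59.5%, 57.3 to 61.7%), against 55.3% of the other estradiol-only peaks (54.5 to 56.1%) and 45.6% of all vWAT estradiol peaks. The 184 desert peaks held with vehicle were found in scWAT at 78.8%, in BAT at 32.6% and in Liver at 26.6% (interval 20.8 to 33.4%), against 81.2%, 36.0% and 68.6% (67.2 to 69.9%) of the 4516 peaks held with vehicle at other positions. A lower Liver share in deserts was therefore seen among peaks held with vehicle too.

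**Figure D1:**
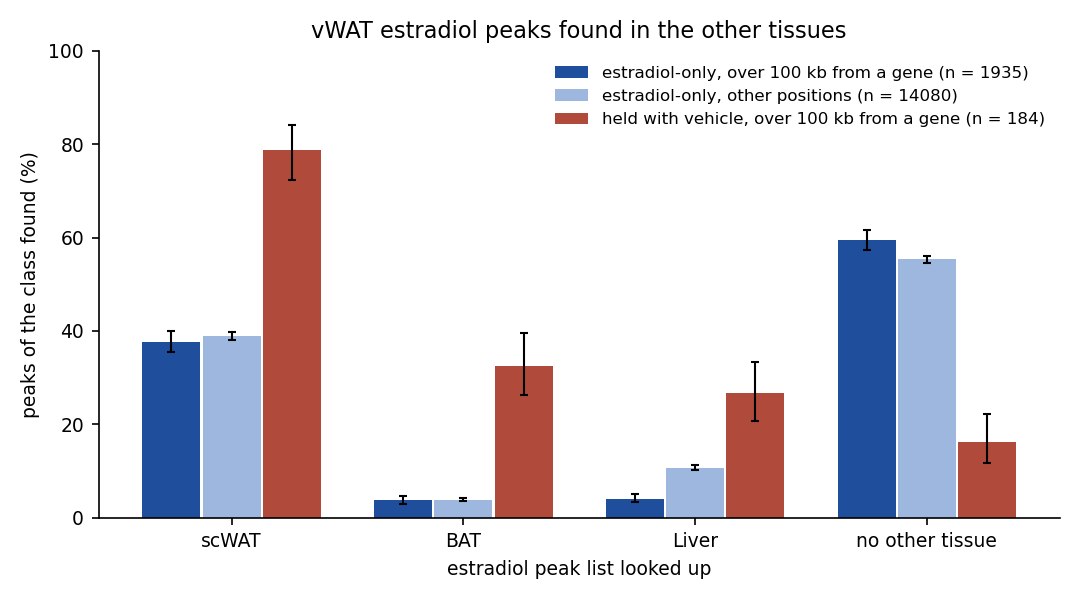
Bars give the percent of each class of vWAT estradiol peaks that overlap a peak of the scWAT, BAT or Liver list, or of none of them, and lines give 95% Wilson intervals over peaks. In Liver the estradiol-only desert peaks stand at 4.13% beside 10.7% for other positions, while in scWAT both stand near 38%.

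Where a desert peak and a scWAT peak overlapped, their summits were a median of 48 bp apart, and 545 of the 730 pairs (74.7%) had summits within 100 bp. Summits in BAT were a median of 89 bp away and those in Liver 115.5 bp. The overlapping scWAT peaks had a median enrichment of 4.29 in their own list, at its 70.8th percentile. Of the 80 peaks found in Liver, 41 were also in scWAT without BAT and 6 were in every tissue. The scWAT-only group was the most numerous of the combinations with another tissue (637 peaks, median vWAT enrichment 6.39), and the 1152 peaks in no other list had a median of 4.59. The 46 peaks in scWAT and BAT had a median of 7.28 and the 6 peaks in every tissue 7.97.

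The Liver share was also lower at matched strength. Estradiol-only peaks were ranked by p-value and divided at each 20% of the ranking into 5 groups, which held 3117 to 3359 peaks each because of tied p-values. In scWAT the share found climbed with strength in both classes, with 11.3, 15.8, 25.1, 43.4 and 76.0% of desert peaks from the weakest to the strongest group, against 18.4, 23.2, 28.8, 45.5 and 81.3% of the other estradiol-only peaks. In Liver the desert peaks were found at 1.83, 4.17, 4.48, 3.93 and 5.64%, against 9.86, 11.5, 11.9, 11.4 and 8.95% of the other peaks. In the strongest group the Liver intervals touched (3.90 to 8.08% for desert peaks, against 7.93 to 10.1% for other peaks), and in the other 4 groups they did not. In scWAT the desert share was below that of other positions beyond the intervals in the weakest group, the second weakest and the strongest.

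**Figure D2:**
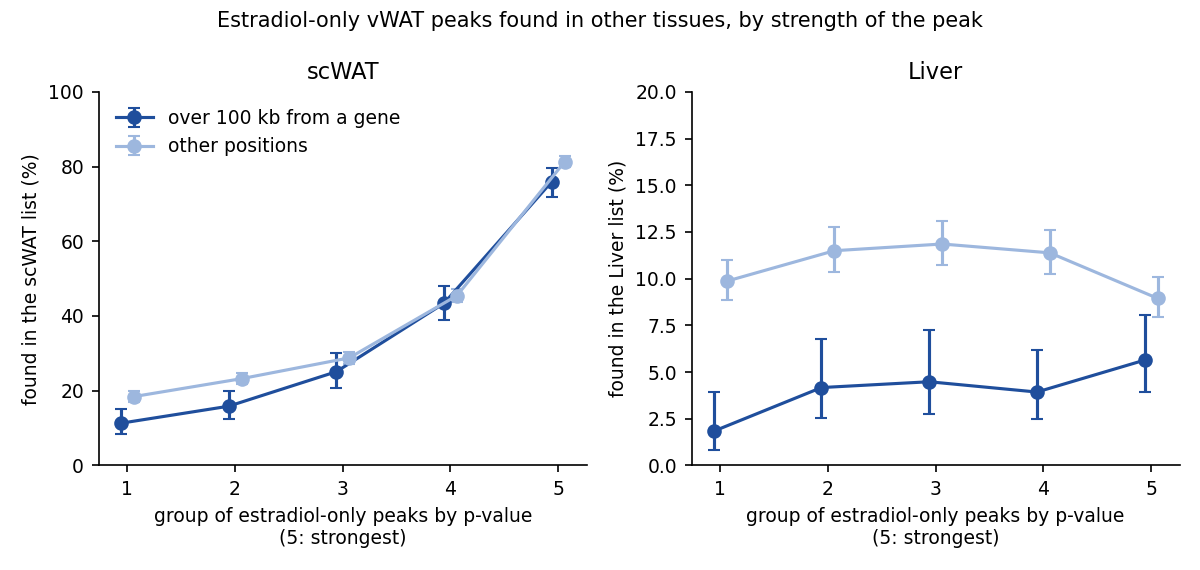
Percent of estradiol-only vWAT peaks found in scWAT (left) and Liver (right) by rank of p-value in 5 groups, with 95% Wilson intervals over peaks; the Liver axis ends at 20%. Desert peaks climb from 11.3 to 76.0% in scWAT across the groups and stay between 1.83 and 5.64% in Liver, below other positions in every group.

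By distance, the Liver share was highest near genes and lowest far away. It was 9.43% for summits inside a gene span, 19.4% up to 10 kb away, 7.22% from 10 to 50 kb, 8.31% from 50 to 100 kb, 4.52% from 100 to 250 kb, 4.21% from 250 to 500 kb and 1.14% beyond 500 kb, where 2 of 176 peaks were found. The scWAT shares over the same bins were 37.1, 44.3, 39.6, 38.4, 37.6, 38.5 and 36.4%. Outside the bin nearest to genes they spanned a narrow range.

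**Figure D3:**
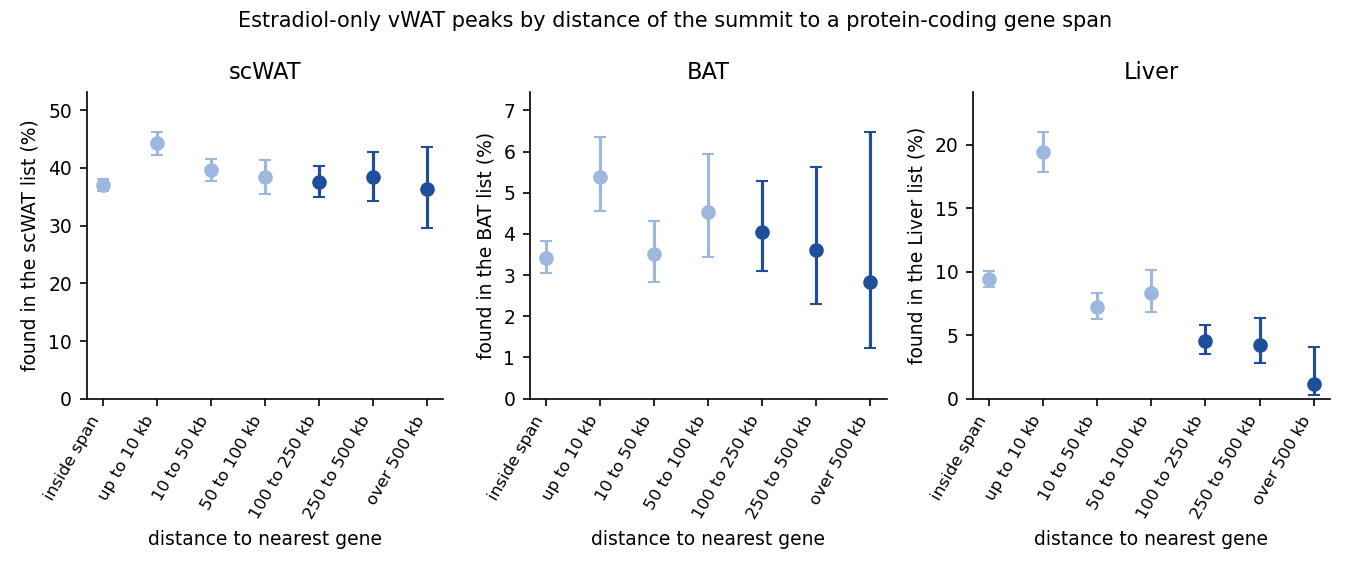
Percent of estradiol-only vWAT peaks found in scWAT, BAT and Liver by distance of the summit to the nearest protein-coding gene, with 95% Wilson intervals; dark points are the desert peaks, and each panel has its own scale. Liver is at 1.14% beyond 500 kb, beside 19.4% within 10 kb of a gene, whereas scWAT lies between 36.4 and 44.3% throughout.

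Looked up in the other direction, 59.1% of the 1480 scWAT peaks in deserts overlapped a vWAT estradiol peak, against 20.6% of the 675 BAT and 4.92% of the 2702 Liver desert peaks. The Liver list thus had more desert peaks than the vWAT lists, and few at the same places. The lookup used the whole vWAT estradiol list, and 733 scWAT, 74 BAT and 80 Liver desert peaks overlapped an estradiol-only desert peak. It was not made for peaks at other positions, so it cannot tell whether these shares are particular to deserts. Over all positions, vWAT estradiol peaks that overlapped another list numbered 10017 for scWAT (17971 peaks), 2306 for BAT (5193) and 4732 for Liver (21411). Desert peaks were 13.0% of the BAT, 12.6% of the Liver, 8.24% of the scWAT and 10.2% of the vWAT estradiol list, and 5.08% of the vehicle list.

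The strongest desert peaks were listed in scWAT as well. All of the 10 with the largest enrichment were in the scWAT list, 4 were in BAT and none in Liver. In the strongest p-value group above, desert peaks were found in scWAT at 76.0%, in BAT at 8.77% and in Liver at 5.64%. The other estradiol-only peaks of that group were found at 81.3, 7.99 and 8.95%, so a high scWAT share is not particular to deserts. At the top of the 10 was the peak at chr8:103180455-103181080, 395 kb from Cdh11, a cadherin of mesenchymal cells. Its enrichment was 20.7 in vWAT, 19.4 in scWAT and 7.15 in BAT. The peak at chr4:142863821-142864571, 243 kb from Prdm2, which encodes a PR-domain zinc finger protein, had 18.3 in vWAT, 15.1 in scWAT and 4.32 in BAT. The peak at chr16:25158037-25159045, in the lncRNA Gm32196 and 128 kb from Tprg, had 17.4 in vWAT, 17.5 in scWAT and 10.6 in BAT. The peak at chr10:56806749-56807505, 417 kb from Gja1, a connexin of gap junctions, had 17.1 in vWAT, 12.6 in scWAT and 3.45 in BAT. These are the 4 of the 10 found in BAT, and enrichment values of different lists are not on a shared scale.

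The other 6 were in vWAT and scWAT alone. They lay 131 kb from Bmper, a secreted modulator of BMP signals (17.9 in vWAT, 8.02 in scWAT), 538 kb from Usp24, a deubiquitinating enzyme (16.9 and 12.7), and 138 kb from Thap1, a zinc finger factor (16.8 and 14.7). The rest lay 244 kb from Gsdmc, a gasdermin (16.7 and 12.6), 142 kb from Zeb2, a zinc finger repressor (16.3 and 12.2), and 1195 kb from Flrt2, a cell-surface guidance protein (16.2 and 7.75). Nearest means nearest in position, and which gene a site acts on was not measured.

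Among peaks in no other tissue list, the strongest was at chr1:119170542-119171132, 116 kb from Gli2, a Hedgehog pathway transcription factor, with an enrichment of 14.6. The next was at chr2:133413574-133414188, 138 kb from Bmp2, a bone morphogenetic protein, with 12.7. After it came peaks near Phf3 (12.1), Fmr1 on chromosome X, an RNA-binding protein gene (11.97), and Cdkn3 in the desert it shares with Bmp4 (11.5). The 5 strongest peaks found in Liver were all in scWAT too. Their vWAT enrichment was 13.9 for the one 204 kb from Tet2, a DNA demethylation enzyme, 11.4 near Qk, an RNA-binding protein gene, 11.2 near Pik3r1, the regulatory subunit of PI3-kinase in insulin signalling, 11.2 near Gadd45g, a stress-response gene, and 10.8 near Tle1, a corepressor. The Tet2 peak was one of the 6 found in every tissue, with 9.69 in scWAT, 5.52 in BAT and 8.87 in Liver. The others of the 6 lay near Tomm20, Diras2, Jun, Lgsn and Ptp4a1.

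The 5 peaks farthest from any gene were at 1901 kb from Cdh20 (enrichment 4.59), 1884 and 1593 kb from Cntnap5a (8.47 and 5.72), 1636 kb from Stim2 (6.12) and 1496 kb from Got2 (6.48). Only the second of the Cntnap5a peaks was found in another tissue, scWAT.

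The next comparison asks how the peaks are spread over deserts. Between neighbouring protein-coding genes there were 1537 intervals over 200 kb long, and 625 of them (40.7%) held at least 1 desert peak. A single peak was in 258 of these deserts, 2 to 4 in 248, 5 to 9 in 87, and 10 or more in 32, and the last 32 held 449 peaks (23.2%). The 625 deserts had a median length of 586 kb, against 347 kb for those with no such peak. The sequence over 100 kb from a gene came to 738 Mb, or 28.4% of the length between the first and last genes, with 2.62 estradiol-only peaks per Mb, against 7.56 per Mb in the remaining sequence. The same densities were 1.97 and 8.86 for scWAT, 0.889 and 2.43 for BAT, 3.64 and 10.0 for Liver, and 0.481 and 3.77 for the vWAT vehicle list.

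Longer deserts held fewer of the peaks per Mb. From the 882 deserts of 200 to 500 kb to the 83 over 2 Mb, density was 6.11, 3.94, 2.06 and 0.573 peaks per Mb over the 4 classes of length, a step down at each. In scWAT it was 4.91, 2.80, 1.48 and 0.506, and in Liver 4.78, 4.31, 3.48 and 2.76. With Liver held to peaks whose −log10 q-value was 2 or more, its densities were 1.72, 1.31, 0.937 and 0.783. Unassembled sequence and sequence to which short reads cannot be assigned were not measured, and their part in these densities was not tested.

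**Figure D4:**
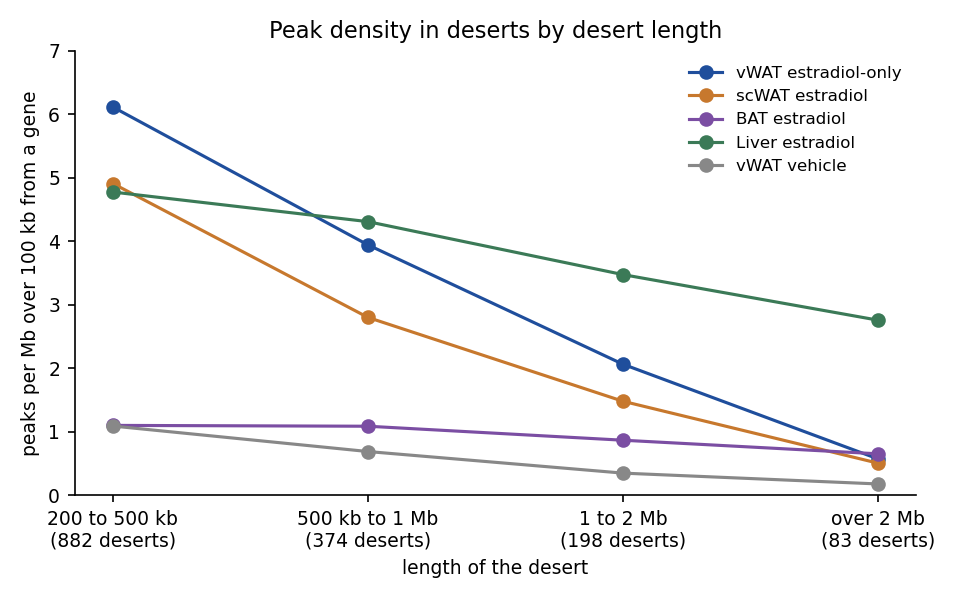
Peaks per Mb of sequence over 100 kb from a protein-coding gene, by length of the desert, for the estradiol-only vWAT peaks and the desert peaks of the other lists. The vWAT estradiol-only line falls to 0.573 per Mb in deserts over 2 Mb, beside 6.11 in the shortest class, and the Liver line falls to 2.76, beside 4.78.

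Chromosome 13 had the most peaks, 191, and the highest density, 5.70 per Mb of desert. The next densities were 3.60 on chromosome 9 and 3.41 on chromosome 16. Chromosome X had 38 peaks and the lowest density, 0.654 per Mb. It also had the fewest estradiol-only peaks over all positions, 224.

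The 8 deserts with the most peaks held 166 of them (8.58%). The desert between Plpp3, a phosphatase that degrades bioactive lipid phosphates, and Usp24 (chr4:105232768-106315979) held 24 peaks with enrichments of 2.96 to 16.9, of which 14 were in scWAT, 3 in BAT and 3 in Liver, and 15 lay nearer to Usp24. The desert between Myc, the growth-promoting transcription factor, and Gsdmc (chr15:61990362-63775970) held 23 peaks, 5 of them in scWAT and none in BAT, beside 6 peaks of the vehicle list over 100 kb from a gene, and 14 of the 23 lay nearer to Myc. The desert between Zeb2 and the activin receptor gene Acvr2a (chr2:45117443-48814108) held 22, of which 11 were in scWAT, and 16 lay nearer to Zeb2. The desert between Pik3r1 and Cd180, an immune receptor gene (chr13:101768218-102693546), held 21, of which 11 were in scWAT and 3 in BAT, and 12 lay nearer to Pik3r1. The desert between Adamts5, a protease of cartilage matrix, and N6amt1 held 19 (11 in scWAT, 13 nearer to N6amt1), and that between Gja1 and Hsf2, a heat shock factor gene, 19 (6 in scWAT, 12 nearer to Gja1). Between Zfp608 and Gramd3 there were also 19 (7 in scWAT, 10 nearer to Gramd3), as there were between Foxo1, a transcription factor of insulin signalling, and Cog6 (7 in scWAT, 11 nearer to Foxo1). The Foxo1 desert was the shortest of the 8, at 632 kb. It was also the densest, with 44.0 peaks per Mb over its 0.432 Mb of sequence over 100 kb from a gene.

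**Figure D5:**
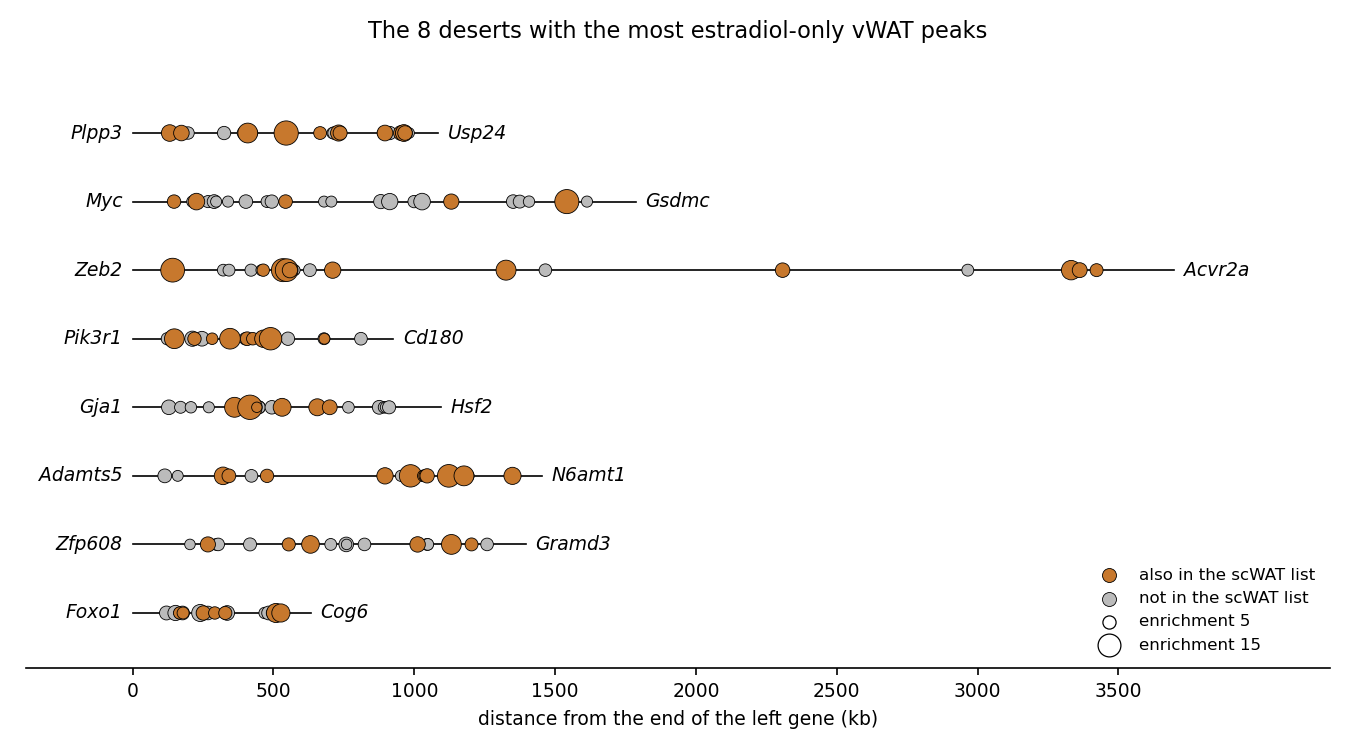
Each line is a desert drawn to scale from the end of its left gene in kb, and each circle is an estradiol-only vWAT peak, with area growing with enrichment and orange where it is also in the scWAT list. The 23 peaks between Myc and Gsdmc include 5 in scWAT, and the 24 between Plpp3 and Usp24 include 14.

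In each of these deserts the strongest peak was also in scWAT. The next strongest was not always, as in the Myc-Gsdmc desert, where it had 7.95 and was in no other tissue. In the Zeb2-Acvr2a desert, 2 peaks 534 and 547 kb from Zeb2 had enrichments of 15.2 and 14.8, and both were in scWAT. In the Pik3r1-Cd180 desert, the peaks at chr13:102257665-102258537 (14.5) and chr13:102113770-102114551 (12.3) were in scWAT and BAT. In the Adamts5-N6amt1 desert, peaks with 14.7 and 14.4, which lay 331 and 466 kb from N6amt1, were in scWAT alone among other tissues. In the Foxo1-Cog6 desert the strongest was 10.5, in scWAT, and one of 8.39 was in no other tissue.

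Among the 119 deserts with at least 5 peaks, the densest were Spring1-Med13l with 7 (72.0 per Mb), Glul-Zfp648 with 5 (54.7 per Mb) and Fam43a-Xxylt1 with 8 (52.4 per Mb). These rates rest on few peaks in only 0.0972, 0.0915 and 0.153 Mb of sequence over 100 kb from a gene. In 3 of the 119 none of the peaks was in scWAT, namely Glul-Zfp648, Npvf-Gm38821 and Zfp507-Gm36722, and in none were all of them in scWAT. In 36 more peaks were in scWAT than not, and in 45 the vehicle list had no peak over 100 kb from a gene.

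Neighbouring peaks were a median of 83.4 kb apart. Another desert peak lay within 12.5 kb of 590 of the 1935 (30.5%). The same count was not made for other peaks or set against the density of the deserts, so no clustering is read from it. Linking peaks at that distance gave 4 runs of 5 and 14 runs of 4. A run of 5 at chr4:106185668-106200213, 116 kb from Usp24, was wholly in scWAT with 3 peaks in BAT, and its enrichments were 2.96 to 8.13. The run at chr13:52022013-52057784, 174 kb from Gadd45g, reached 11.2 and had 2 peaks in Liver. The run at chr5:118380436-118404813 in the Spring1-Med13l desert reached 12.1, and the one at chr10:96162935-96184929 near Eea1 reached 7.16. A run of 4 near Gata6, a transcription factor of mesodermal organs, reached 6.51 and was in no other tissue.

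The flanking genes were read through 7 gene lists, chosen with earlier results of these data known. Over all protein-coding genes that flank a desert, 1159 of 2598 had at least 1 estradiol-only peak in a desert beside them (44.6%, interval 42.7 to 46.5%), with a median of 0 peaks. Of the mesodermal and depot transcription factors, 29 of the 39 that flank a desert did (74.4%, 58.9 to 85.4%), with a median of 2, among them Zeb2 with 22, Gata6 with 11, and Ebf1, a factor of fat cell commitment, and Meis1, a homeobox gene, with 8 each. Of the secreted signals, 19 of 26 did (73.1%, 53.9 to 86.3%), among them Bmp4 and the chemokine gene Cxcl12 with 10 each, and Inhbb, an activin subunit made by adipocytes, and Tgfb2 with 7 each. Of the adipogenic factors, 7 of 10 did, among them Klf4 with 11, Ebf1 and Nfib with 8 each and Nfia with 5. Of the cell adhesion and axon guidance genes, 26 of 46 did (56.5%, 42.2 to 69.8%), led by Cdh11 with 11, Flrt2 with 10, Slitrk1 with 9 and Cntn3 with 6.

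Deserts differ in length, so counts were also set over length. Per gene, the deserts beside adhesion and guidance genes had a median of 2.75 Mb of sequence over 100 kb from a gene. The median for all genes beside a desert was 0.254 Mb. Deserts beside adhesion and guidance genes held 0.597 peaks per Mb, against 2.62 over all desert sequence. Those beside mesodermal and depot factors had a median of 0.477 Mb and held 4.41 per Mb. Those beside secreted signals had 0.321 Mb and held 6.55 per Mb. The 4 smaller lists held 5.17 per Mb (adipogenic factors, 10 genes), 8.16 (estrogen response, 9), 25.9 (adipokines, 3) and 1.72 (lipid storage and release, 4). Over all deserts, density was 6.11 per Mb at 200 to 500 kb, 3.94 at 500 kb to 1 Mb and 0.573 over 2 Mb. The 2.62 is thus not matched for length, and the part of desert length in the densities of the lists was not tested. Genes of lipid storage and release were rarely beside a desert, at 4 of the 28 found, and only Lpin1, a phosphatidate phosphatase of triglyceride synthesis, had peaks there, 4 in number. Of the adipokines, 2 of 3 did, Nampt with 6 and Vegfa with 3. Of the estrogen response genes, 5 of 9 did, among them Myc with 30 over the deserts on both sides, Cxcl12 with 10, Nrip1, a nuclear receptor corepressor, with 10, and Gata3 with 1. A gene on several lists counts on each, and expression of these genes was not used here.

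Deserts of protein-coding genes hold many noncoding genes. The summit lay in a noncoding gene span for 438 of the 1935 peaks (22.6%), 427 of them in lncRNAs, spread over 317 genes. The share of desert sequence inside noncoding spans was not measured, nor was this share for other desert peaks. Whether 22.6% differs from either is thus not known. The span with the most was that of Mir100hg, the host of a microRNA cluster, with 6 peaks in 239 kb, and the related host on chromosome 16, Mir99ahg, had 5 in 229 kb. Another 5 each lay in 6030407O03Rik, A930011G23Rik, Gm31814, Gm34516 and LOC108167736. In A930011G23Rik they reached 13.3. The 5 in LOC108167736 are all of the peaks of the Glul-Zfp648 desert, with enrichments of 3.59 to 6.85, 2 of them in BAT and none in scWAT. Pvt1, the lncRNA beside Myc, had 4 peaks with 3.81, 4.23, 5.21 and 7.93, of which the last 2 were in scWAT and the one with 4.23 in Liver.

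The microRNAs hosted by Mir100hg and those encoded beyond Mir99ahg belong to the same 3 families. The mature sequences below (RefSeq, GRCm38.p6, 5′ to 3′) are shown because Mir100hg had the most peaks of any noncoding gene and Mir99ahg lies beside microRNAs of the same families, and capitals mark the seed, bases 2 to 8, which pairs with target messages. miR-100-5p and miR-99a-5p share the seed ACCCGUA, and miR-125b-5p is the same sequence from the Mir125b-1 and Mir125b-2 genes.
mmu-miR-100-5p: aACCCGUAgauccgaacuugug
mmu-miR-99a-5p: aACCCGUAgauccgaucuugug
mmu-miR-125b-5p: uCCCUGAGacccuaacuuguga
mmu-let-7c-5p: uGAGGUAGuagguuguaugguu

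The 6 peaks in Mir100hg had enrichments of 2.66, 3.63, 4.38, 4.46, 4.66 and 5.04, the highest of them close to the median of all desert peaks. Those with 3.63, 4.38 and 4.66 were in scWAT, and the one with 4.38 was also in BAT. The nearest summit to Mir125b-1 was 1.84 kb away, that of the 2.66 peak, which was the weakest of all 1935. The nearest to Mir100 was 16.1 kb and to Mirlet7a-2 21.4 kb away, both the 4.38 peak. The Mir100hg span also held vehicle peaks, 4 in all, beside 8 vWAT estradiol peaks. The 5 peaks in Mir99ahg had 4.09, 4.12, 4.24, 4.48 and 4.73, with those of 4.09 and 4.24 in scWAT. Their nearest summit was 89.9 kb from Mir99a and 90.7 kb from Mirlet7c-1. Transcription of these hosts was not measured here.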

How the data were processed

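The samples, 21 in all, were grouped by their labels. The members and gene lists were chosen with earlier results of these data known. Per the submitters' processing notes, the build was mm10 and the tools included BWA 0.7.12 and HOMER, without their roles. Which peak caller, threshold and control were used, and how libraries were pooled, the sources used here do not say. The lists deposited by the authors give each peak an enrichment ratio over an unstated background, its −log10 p-value and −log10 q-value, its summit position and a score, which was 10 times the −log10 p-value cut to a whole number for 99.9986% of peaks. H3K27ac ChIP-seq (2 libraries with estradiol, 2 with vehicle) and RNA-seq (3 and 2) of vWAT were not used here.

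Peaks were called shared at an overlap of 1 bp. Distances are from the summit to the spans of 21631 protein-coding genes of the RefSeq table for GRCm38.p6, the assembly of mm10. Deserts are intervals over 200 kb between neighbouring spans. Peaks per Mb of desert are over its sequence beyond the distance limit, 100 kb unless changed. Of 219 genes in the lists, 218 were found. Shares carry 95% Wilson intervals, and with 1 list per group no test was made. A motif search around summits was planned but needed a genome, so RefSeq start windows took its place, searched on both strands. The peaks named are the 10 strongest, the 5 strongest per other tissue and in no other tissue, the 5 farthest from a gene and those nearest the limit. The deserts named are the 8 with the most peaks and the 3 densest. For each gene list up to 4 genes by count are named. The noncoding genes and runs were picked once their values were known. The code was tested on simulated data (scipy 1.17.1, pandas 2.3.3, numpy 2.4.6, matplotlib 3.10.9, run in Python 3.11.15). The alternatives changed the distance, the gene spans, the q-value threshold, the meaning of overlap and the length of the lists.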

Additional observations from a re-analysis of the deposited data

How the results depend on the processing

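Each of the 7 summary values was recomputed under 8 alternatives. Of these values, 24 stayed within the interval (for a count, within 1.5 times) and 32 did not. The number of desert peaks was 3018 at a limit of 50 kb, 921 at 200 kb, 263 when noncoding genes also counted as genes, and 440 with every list held to the length of the shortest, 5193 peaks. Their share of estradiol-only peaks was 18.8, 5.75, 1.64 and 15.04% under these settings, and 11.4% when sharing meant summits within 100 bp. Peaks per Mb of desert were 3.20, 1.78, 1.18 and 0.596 under the same 4 settings, 2.39 with −log10 q of 2 or more in the vWAT estradiol list and 2.45 with it in every list. The share found in scWAT was 40.0% with that threshold in the vWAT list, 28.6% by summits and 59.5% at equal length. The BAT share was 2.66% with every gene, 1.27% with the threshold in every list, 2.30% by summits and 8.86% at equal length. The Liver share was 5.63% at 50 kb, 2.28% with every gene, 2.43% with the threshold in every list, 2.25% by summits, 5.76% with intervals within 1 kb and 1.36% at equal length. The share in no other tissue was 57.2% with the threshold in the vWAT list, 69.55% by summits, 56.4% within 1 kb and 38.2% at equal length.

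The Liver share of desert peaks was below that of the other estradiol-only peaks under all 8 alternatives. At equal length the intervals overlapped (0.626 to 2.94% for desert peaks, against 2.41 to 3.77% for the other peaks, 3.02% found), and elsewhere they did not. The scWAT shares differed within their intervals under each alternative. Why values moved was not tested, beyond what a setting itself changes (fewer peaks, another definition). No leave-one-out value was made. No paired analysis was possible because each group has 1 list for all its libraries, although vWAT libraries with estradiol and with vehicle share the numbers 1 and 2.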
